A study of Mus musculus with 3 samples.

Results

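Accessible chromatin was compared between a pair of ATAC-seq libraries from mouse skin squamous cell carcinoma, one labelled Fat1 cKO Epcam- and the other labelled Fat1 cKO Epcam+. Regions off the mitochondrial genome that had 20 counts or more in 1 of the 2 were kept, which gave 62308 of the 95840 nuclear regions, or of 95842 in all. The log2 ratio of the library labelled Epcam- over that labelled Epcam+ was described for each of them. Each library was the only one of its group, so the pair had no replicates, no difference between conditions could be tested, and no p-value is given. A region or gene was called higher or lower at a 2-fold change or more, and the 95% Clopper-Pearson intervals given with ratios cover counting error only, since copies of a molecule were not marked by molecular identifiers.

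Tumours had been induced with DMBA, a mutagen, and TPA, a tumour promoter. Both libraries of the pair are labelled as from K14Cre;Fat1fl/fl;RYFP mice on a mixed background, and their titles share the same tumour label. Another library, shown beside the pair, is labelled as Epcam+ cells of a K14Cre;RYFP tumour, which carries the same Cre and reporter with no floxed Fat1 and was treated in the same way. In all 3 groups Cre is driven by the keratin 14 promoter, which is active in basal keratinocytes, and switches on a YFP reporter, and tumour cells were isolated by flow cytometry on Epcam. The sources used here do not give the age and sex of the mice, or whether cells of several tumours were pooled. Below, the 3 libraries are called the library labelled Epcam-, the library labelled Epcam+ and the library labelled control, and sets of counts are given in that order.

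ATAC-seq uses a transposase that inserts adapters where DNA is not wrapped in nucleosomes, so that counts over a region follow how open it was across the cells. In bulk cells, fewer cells with an open site and less opening per cell cannot be told apart. Epcam is a surface protein of epithelial cells that is lost when carcinoma cells pass through epithelial to mesenchymal transition (EMT), in which factors of the Zeb, Snai and Twist families repress epithelial genes and cells gain vimentin and fibrillar matrix. Fat1 is a giant protocadherin, and loss of its function is frequent in squamous carcinoma.

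A few start sites are shown first by their sequence: those of genes whose several starts differed from each other (Runx3, Tsc22d1), and those of neighbouring cell cycle inhibitors and of a BMP ligand described below. Other start sites differed as much or more. Each line gives the 250 bases before a RefSeq start site, 5′ to 3′ on the gene's strand, from RefSeq on GRCm38.p6. Capitals mark matches on either strand to any of 6 motifs: AP-1 (TGANTCA), RUNX (TGTGGT), TEAD (GGAATG), the E-box bound by ZEB and SNAI factors (CAGGTG), GRHL (AACNGGTT) and FOX (TGTTTAC). No match overlaps another in the printed lines. Runx3, a Runt domain transcription factor, has an upstream start at chr4:135120395-135120644 (plus strand) and a downstream start at chr4:135152295-135152544 (plus strand).
Runx3 upstream start: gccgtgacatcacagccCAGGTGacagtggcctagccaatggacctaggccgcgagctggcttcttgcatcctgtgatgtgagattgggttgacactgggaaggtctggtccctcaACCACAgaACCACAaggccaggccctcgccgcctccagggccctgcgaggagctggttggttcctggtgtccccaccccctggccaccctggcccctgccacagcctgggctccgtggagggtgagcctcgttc
Runx3 downstream start: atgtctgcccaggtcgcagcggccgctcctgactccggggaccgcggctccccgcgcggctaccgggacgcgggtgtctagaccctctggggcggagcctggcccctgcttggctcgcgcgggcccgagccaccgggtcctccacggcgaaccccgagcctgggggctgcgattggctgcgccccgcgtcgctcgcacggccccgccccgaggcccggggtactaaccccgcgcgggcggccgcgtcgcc
The upstream window holds 2 matches to the RUNX letters and 1 to the E-box, and the downstream window holds no match. They differ in base composition, with 65.2% GC and 8 CpG upstream against 78.8% GC and 38 CpG downstream.

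Tsc22d1 encodes a leucine zipper protein, and its start at chr14:76488186-76488435 (plus strand) lies between other starts of the same gene.
Tsc22d1 middle start: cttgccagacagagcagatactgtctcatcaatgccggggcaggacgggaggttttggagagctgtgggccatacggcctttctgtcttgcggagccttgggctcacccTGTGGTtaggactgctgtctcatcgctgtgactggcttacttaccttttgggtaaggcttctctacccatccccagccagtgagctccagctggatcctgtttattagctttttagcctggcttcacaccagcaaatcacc
This window holds 1 match to the RUNX letters, 54.4% GC and 5 CpG.

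Cdkn2a and Cdkn2b are neighbouring genes for inhibitors of the cell cycle. Cdkn2a uses an upstream start for the Arf transcript, at chr4:89294620-89294869 (minus strand), and a downstream one for Ink4a, at chr4:89282193-89282442 (minus strand), and the start of Cdkn2b is at chr4:89311033-89311282 (minus strand).
Cdkn2a Arf start: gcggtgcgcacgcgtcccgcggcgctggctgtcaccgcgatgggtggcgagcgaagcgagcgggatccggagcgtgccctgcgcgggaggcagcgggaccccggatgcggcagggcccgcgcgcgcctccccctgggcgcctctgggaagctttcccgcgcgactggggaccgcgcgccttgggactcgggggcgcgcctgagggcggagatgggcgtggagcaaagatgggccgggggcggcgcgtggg
Cdkn2a Ink4a start: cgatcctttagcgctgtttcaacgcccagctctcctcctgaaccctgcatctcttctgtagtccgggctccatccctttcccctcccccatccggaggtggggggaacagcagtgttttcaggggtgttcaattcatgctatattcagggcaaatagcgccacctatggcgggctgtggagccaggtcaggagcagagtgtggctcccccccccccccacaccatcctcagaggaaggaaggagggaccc
Cdkn2b start: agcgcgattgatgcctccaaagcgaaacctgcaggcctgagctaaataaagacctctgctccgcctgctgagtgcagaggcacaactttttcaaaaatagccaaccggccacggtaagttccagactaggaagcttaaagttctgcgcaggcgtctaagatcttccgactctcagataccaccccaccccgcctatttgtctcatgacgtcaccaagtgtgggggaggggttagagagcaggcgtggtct
None of the 6 motifs was found in these 3 windows, which says only that the letters are not in them.

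Bmp4, a secreted ligand of the BMP family, starts at chr14:46390670-46390919 (minus strand).
Bmp4 start: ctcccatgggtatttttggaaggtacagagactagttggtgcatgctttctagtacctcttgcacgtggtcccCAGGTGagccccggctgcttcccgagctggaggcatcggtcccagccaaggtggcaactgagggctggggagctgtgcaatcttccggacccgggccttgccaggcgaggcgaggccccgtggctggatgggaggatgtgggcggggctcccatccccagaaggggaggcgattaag
The capitals mark 1 match to the E-box.

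The labels were checked before any direction was read. For each library the deposited table holds counts and, in a separate column, whether the region was called as a peak. Of the 47604 regions called as peaks in the library labelled Epcam-, 65.9% were among the same number of highest counts in its own count column, against 73.5% in the column labelled Epcam+ and 89.1% in that labelled control. Calls labelled Epcam+ followed their own counts, with 89.7% among the highest. Calls labelled control followed the counts labelled Epcam- (89.9%) more closely than their own (67.2%). So the calls of the libraries labelled Epcam- and control each track the other's count column. Every direction below is therefore a direction between column names, and the median of each list of genes described is also given for the count column labelled control over that labelled Epcam+, as its control median. Which of the columns carries the right name was not tested. Counts and calls over Epcam and the Y chromosome, where the columns labelled Epcam- and control also differ, are given next.

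**Figure D1:**
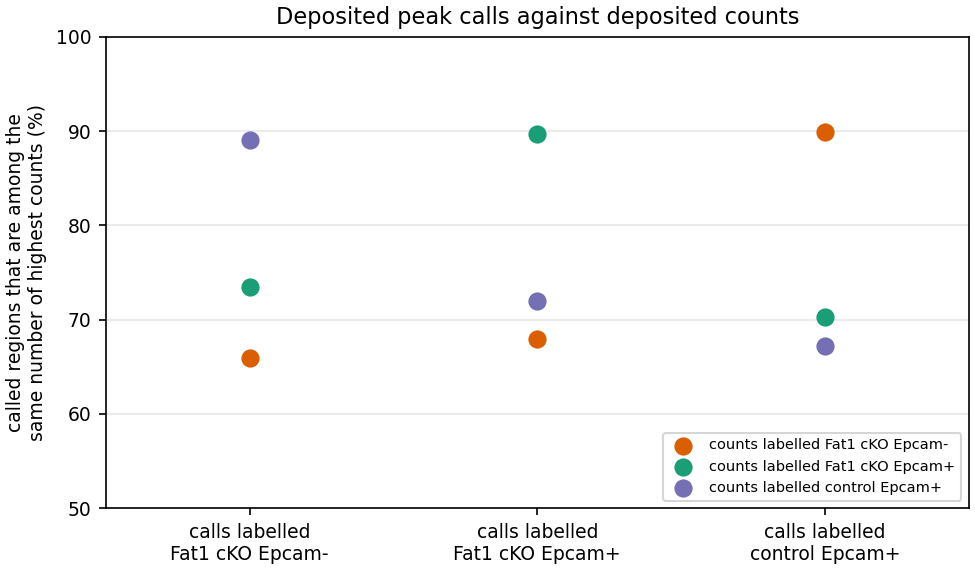
Share of the regions called as peaks (vertical axis, percent, starting at 50) that are among the same number of highest counts, for the calls of each library (horizontal axis) against each count column (point colour). The calls labelled Epcam- reach 89.1% in the counts labelled control, those labelled control reach 89.9% in the counts labelled Epcam-, and those labelled Epcam+ reach 89.7% in their own.

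Epcam itself has 6 assigned regions on chromosome 17, and their counts did not order the pair in 1 way. The region that covers the start of the gene (chr17:87635827-87637328) had 328, 205 and 69 counts, a log2 ratio of 0.09 (-0.17 to 0.35). Scaled to depth, the pair was level there and the library labelled control was lowest, at 15.3 CPM (counts scaled to a common library size) against 59.6 and 56.1. The other regions lie outside the gene, between it and 50 kb from it, and all 5 were lower in the library labelled Epcam-, by -2.94 to -0.67. The most distant, at chr17:87603161-87603801, had 20, 113 and 18 counts. Over all 6 regions Epcam had 725, 819 and 305 counts, a log2 ratio of -0.76 (-0.91 to -0.62).

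Fat1 was covered by 20 regions with 1369, 698 and 714 counts in all, a log2 ratio of 0.38 (0.25 to 0.52). By their labels both libraries of the pair carry the same floxed allele, but which count column carries the right name was not tested. The sources used here also do not give the exons that Cre removes, so these counts do not check the deletion. Signal on the Y chromosome did separate the pair. Of 33 Y regions, 17 had 10 counts or more in the library labelled Epcam- and 0 or 1 in that labelled Epcam+. Over all 33 regions the counts were 1196, 218 and 339. The 17 regions, chosen by these counts, held 603, 0 and 6 of them, and the other 16 held 593, 218 and 333, so the library labelled Epcam+ was not without Y counts. The peak calls marked 16 of the 17 in the library labelled control and 0 in either library of the pair. They include regions of Ddx3y (58, 0 and 0 counts) and Eif2s3y (82, 0 and 0 counts), genes carried on the Y chromosome of males. The titles give the pair 1 tumour label, and the counts over these Y regions differ within it.

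Total counts were 9304031, 6647179 and 7122115, of which 41.0%, 42.6% and 39.1% were mitochondrial, leaving 5485317, 3812880 and 4335304 nuclear counts. Of 6 marker lists of other cell types, the Schwann cell and nerve list alone had a higher summed level in the library labelled Epcam- than in that labelled Epcam+. Summed CPM was 119, 141 and 144 for 12 immune markers, of which 7 were measured and 4 had no region; the unmeasured ones were Cd4, Cd8a, Itgax, Adgre1 and Lyz2. It was 412, 542 and 488 for 8 endothelial markers, 240, 391 and 567 for 11 fibroblast and pericyte markers, 175, 240 and 252 for 6 melanocyte markers, 125, 118 and 74.5 for 4 Schwann cell and nerve markers, and at most 52.6 for 5 skeletal muscle markers. The part of other cell types in the ratios below was not tested.

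Of the 62308 regions, 15597 (25%) passed 2-fold on the higher side in the library labelled Epcam- and 10876 (17.5%) on the lower side, and the median log2 ratio was 0.14. After each chromosome's median was set to 0, 13572 (21.8%) were higher and 11686 (18.8%) lower. The ratios differed by how a region had been called. Regions called in both libraries (29879) had a median of -0.25, those called only in the library labelled Epcam- (7949) one of 0.77 and those called only in that labelled Epcam+ (8117) one of -0.80. The widest difference was in the 16363 regions called in neither, whose median was 1.34 and of which 64.9% were 2-fold or more higher. Of these regions called in neither, 88.7% had been called in the library labelled control. That share was 80.3% over all kept regions and 85.3% over those called in both. The table holds merged regions, so one called in neither may be in it through a call in the library labelled control. These shares are therefore not directly comparable. Called in none of the 3 were 1850 regions.

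Whole chromosomes were shifted. The median log2 ratio was 0.55 on chromosome 2, where all 19 windows of 10 Mb lay above 0 (0.11 to 0.96). Chromosomes 19 (0.38) and 10 (0.32) were also above the overall median. Chromosome 7 had a median of -0.49, with 0 of 15 windows above 0 (-0.81 to -0.29). Chromosomes 6 (-0.32) and 11 (-0.23) were below 0 too, with 4 of 15 and 4 of 13 windows above 0. On chromosome 7 the shift was alike at listed start sites (median -0.53) and far from them (-0.48). On chromosome 2 it was 0.34 at listed start sites and 0.83 far from them. The list of start sites is incomplete, as described below. Against the library labelled control, the library labelled Epcam- had medians of 0.56 on chromosome 2 and -0.18 on chromosome 7, and the library labelled Epcam+ had -0.03 and 0.25. What shifts whole chromosomes was not tested. Each list below is therefore also counted with chromosome medians set to 0, called centred, and a gene's centred ratio is given where it changes the call.

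**Figure D2:**
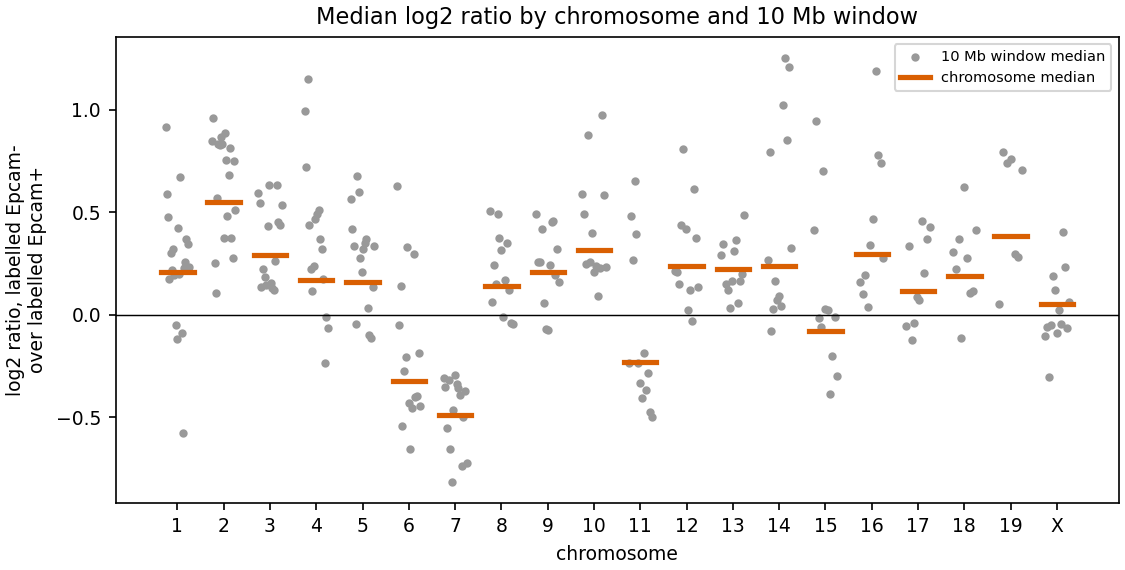
Median log2 ratio of the library labelled Epcam- over that labelled Epcam+ (vertical axis) for each chromosome (horizontal axis; orange bars) and for its 10 Mb windows (grey points). All 19 windows of chromosome 2 lie above 0 and all 15 windows of chromosome 7 below it.

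The share of regions past 2-fold was smaller at listed start sites than far from them. Within 250 bases of a start site, 8.05% of 7004 regions were 2-fold or more higher and 4.07% lower. Farther than 50 kb from one, 31.1% of 23208 regions were higher and 21.4% lower. Distant regions also had fewer counts, so the comparison was repeated at 200 counts or more, where 2.86% were higher and 1.63% lower within 250 bases of a start site, against 11.7% and 10.8% beyond 50 kb. Start sites on chromosome 18 were not analysed here, and the list of start sites lacks those of other genes too. A region inside Hoxc13 was counted as 113009 bases from a listed start. Another, 39928 bases from Rdh10, was counted as 1973424 bases from one. Some regions counted as distant may therefore lie at or near unlisted starts, and the effect on these shares was not tested.

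**Figure D3:**
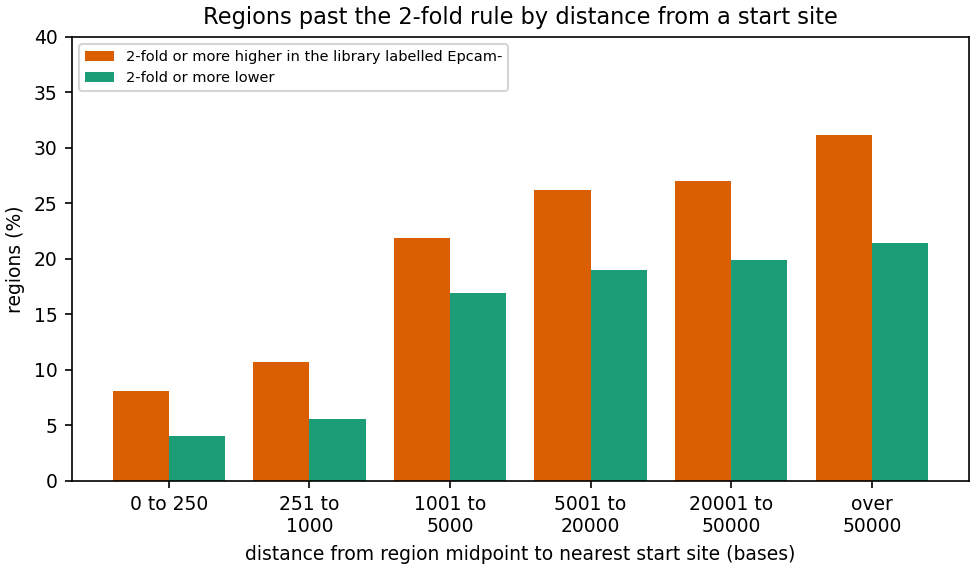
Share of regions (vertical axis, percent) that were 2-fold or more higher (orange) or lower (green) in the library labelled Epcam-. The horizontal axis gives the distance in bases from the region's midpoint to the nearest listed start site, and the list is incomplete. The bars are lowest within 250 bases, at 8.05% and 4.07%, and highest beyond 50 kb, at 31.1% and 21.4%.

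Counts were summed per gene over the regions nearest to it, within 50 kb. Of 15674 genes with enough counts, 1487 (9.49%) passed 2-fold on the higher side in the library labelled Epcam- and 984 (6.28%) on the lower side, and their median log2 ratio was 0.00. With chromosome medians set to 0, 1174 (7.49%) were higher and 1030 (6.57%) lower, with a median of -0.12. The lists of genes below are read against these shares. Since regions can be joined to genes in other ways, the ratio over regions within 1 kb of a gene's ends or within 10 kb of it is given where it ends the call. Not every gene had such a ratio: of 114 named genes past 2-fold, 109 had one within 10 kb and 79 at gene ends.

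The factors that drive EMT were not higher in the library labelled Epcam-. All 11 measured members lay below 0, with a median log2 ratio of -0.59, and 4 were 2-fold or more lower, or 6 centred. Zeb2, a zinc finger repressor of epithelial genes, had 383, 575 and 659 counts over 17 regions, a log2 ratio of -1.17 (-1.37 to -0.99). The basic helix-loop-helix factor Twist1 had 210, 285 and 357 counts (-1.02), and the log2 ratio of Twist1 was -0.92 over regions within 10 kb and -0.96 with total nuclear counts as library sizes. Its relative Twist2 had 154, 285 and 581 counts (-1.46), and turned to 0.65 over the regions within 1 kb of its ends. Twist2 was highest in the library labelled control. Foxc2, a forkhead factor of mesenchyme, had 103, 150 and 155 counts (-1.11); the log2 ratio of Foxc2 was -0.99 as the median over its regions. The smallest difference was that of Snai2, with 298, 229 and 285 counts (-0.21, -0.46 to 0.05), whose interval includes 0. The control median of the list was 0.09.

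Some mesenchymal and matrix genes were called lower, and 0 were called higher. Of 15 genes of the mesenchymal cytoskeleton and matrix, 12 lay below 0 and 3 were called lower, or 6 centred (median -0.67, control median -0.01). Of 11 fibrillar and microfibrillar collagens, 7 lay below 0 and 4 were called lower, or 5 centred (median -0.74, control median 0.66). Fibrillin 1 (Fbn1), the core of microfibrils, had 342, 565 and 721 counts (-1.31). Col6a2, a chain of collagen VI, had 103, 271 and 537 counts (-1.96, -2.33 to -1.65), and its neighbour Col6a1 182, 276 and 471 (-1.18). Neither passed 2-fold over the regions within 1 kb of its ends, at -0.76 and -0.72, or within 10 kb, where the log2 ratio of Col6a2 was -0.76 and the log2 ratio of Col6a1 -0.98. Col1a2, a chain of type I collagen, had 125, 232 and 676 counts (-1.46). The intermediate filament gene Vim had 294, 326 and 466 counts (-0.73, or -1.28 centred). On the other side of 0, smooth muscle actin (Acta2) had 169, 70 and 142 counts (0.67) and Col3a1 83, 35 and 208 (0.63). Scaled to depth, the library labelled control was the highest of the 3 for each of these 7 genes. The fibroblast and pericyte list, which shares chains of type I and type III collagen with the collagens, had a median of -0.63 (control median 0.41), with 3 of 10 lower, or 4 centred. Of 15 matrix metalloproteinases and their inhibitors (median -0.13, control median -0.04), the inhibitor Timp1 alone was called, with 18, 43 and 26 counts (-1.72), or 2 genes centred.

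Epithelial transcription factors were mostly level, with a few higher. The median of 19 was 0.28, and 4 were called higher and 0 lower, or 2 and 0 centred. Tfap2b, an AP-2 factor, had 570, 79 and 232 counts (2.24, 1.92 to 2.62). All of its 15 regions were above 0, and 10 of the 11 with enough counts passed 2-fold. Ovol1, a zinc finger factor that opposes EMT, had 287, 81 and 47 counts (1.22, or 0.84 centred), and Elf5, an Ets factor, 110, 33 and 62 (1.11, or 0.56 centred). Over regions within 10 kb, the log2 ratio of Elf5 was 0.25. Tfap2c had 727, 240 and 178 counts (1.01, or 0.45 centred), and the log2 ratio of Tfap2c within 10 kb was 0.84. Trp63, which sets the stratified epithelial fate, had 896, 513 and 338 counts (0.22), and Grhl2, which keeps epithelial enhancers open, 1093, 836 and 321 (-0.20). For Trp63 and Grhl2 the library labelled control was well below both. The control median of the list was -0.84.

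Of the keratins of simple epithelia most were called lower, and 0 basal keratins were called. Of 6 keratins of simple epithelia all lay below 0 (median -1.24, control median -1.75) and 4 were called lower, or 3 centred. Krt18 had 219, 525 and 175 counts (-1.84, -2.08 to -1.62), and all 7 of its regions passed 2-fold. Its partner Krt8 had 175, 374 and 121 counts (-1.67), and Krt7 42, 78 and 42 (-1.43). Scaled to depth, Krt18 was at 39.8 CPM in the library labelled Epcam- and 38.8 in that labelled control, against 144 in that labelled Epcam+. Of 8 basal and stress keratins, 0 were called and the median was -0.51 (control median -2.15). Krt14, whose promoter drives Cre in these mice, had 394, 447 and 101 counts (-0.77), and Krt15, a keratin of the hair follicle bulge, 62, 23 and 17 (0.80, or 1.03 centred, the 1 centred call of that list).

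Junction genes were divided. Of 18 tight junction genes (median -0.27, control median -1.30), 2 were higher and 3 lower, or 1 and 4 centred. Claudins, the proteins that seal the gap between cells, were on both sides. Cldn17 had 240, 16 and 38 counts over 5 regions (3.19, 2.59 to 4.15). Its 4 regions with enough counts lie 18147 to 42329 bases outside the gene, and the nearest region had 13, 3 and 2 counts. Too few counts lay within 10 kb of Cldn17 for a ratio there. Its neighbour Cldn8 had 236, 64 and 24 counts (1.27, or 0.98 centred). Cldn7, a binding partner of Epcam, had 56, 134 and 33 counts (-1.80) and Cldn3 237, 437 and 102 (-1.46). Of 12 adherens junction genes (median -0.21, control median -0.77), 1 was higher and 1 lower, or 1 and 2 centred. Cdh4, R-cadherin, had 489, 108 and 129 counts (1.58), N-cadherin (Cdh2) 128, 196 and 116 (-1.19, or -0.16 within 1 kb of its ends), and E-cadherin (Cdh1) 746, 586 and 190 (-0.24). Neither the epithelial cadherin nor, at its gene ends, the one gained in EMT passed 2-fold. Of 13 desmosome genes (median 0.10, control median -1.41), 0 were called, and Dsc3, a desmosomal cadherin, came nearest on the higher side with 806, 306 and 132 counts (0.81). Of 13 genes of hemidesmosomes and basement membrane (median -0.29, control median -0.35), the anchoring collagen Col7a1 with 183, 319 and 326 counts (-1.38, or -0.43 within 1 kb of its ends) and the laminin chain Lamb3 with 443, 640 and 394 (-1.12) were called lower.

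Of 15 measured genes of the cornified envelope and late differentiation (median 0.43, control median -0.95), 3 were higher and 0 lower, or 4 and 1 centred. The transglutaminase Tgm3, which crosslinks the envelope, had 472, 68 and 76 counts (2.18), and Casp14, the protease of cornifying keratinocytes, 309, 46 and 50 (2.12, 1.71 to 2.64). Flg2, a filaggrin relative, had 30, 3 and 6 counts (2.23). On the other side, Krt10, the keratin of suprabasal cells, had 50, 61 and 69 counts (-0.84). Of 16 measured genes of epidermal lipid synthesis and transport (median 0.19, control median -0.40), 3 were higher and 1 lower, also when centred. Sptlc3, a subunit of the enzyme that starts sphingolipid synthesis, had 350, 28 and 101 counts (2.98, 2.50 to 3.67), the ceramidase Acer1 193, 22 and 20 (2.46), and Pnpla1, needed for skin acylceramides, 361, 93 and 58 (1.35). Far2, which makes fatty alcohols, had 36, 124 and 164 counts (-2.30).

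Genes for BMP ligands were among the most different of the signalling genes. Of 13 measured BMP and TGF-beta ligands 3 were higher and 0 lower, or 2 and 0 centred, although the median of the list was -0.27 (control median -0.08). Bmp4 had 359, 35 and 85 counts (2.71, 2.27 to 3.31), Bmp2 543, 130 and 294 (1.46, or 0.91 centred) and Bmp3 518, 142 and 226 (1.27). The region over the Bmp4 start site, whose sequence is given above, had 151, 9 and 10 counts (3.27, 2.52 to 4.64), and that inside the gene at chr14:46386841-46388017 had 118, 9 and 33 (2.92). At the start site the library labelled control matched that labelled Epcam+, and inside the gene it lay between the pair. The TGF-beta ligand Tgfb1 had 667, 639 and 611 counts (-0.53). Among 24 receptors, inhibitors and effectors (median 0.19, control median -0.01), the secreted BMP inhibitor Nog, with 216, 43 and 54 counts (1.70), and the BMP effector Smad1, with 1016, 324 and 507 (1.06), were called higher; centred, Smad1 was at 0.92. Ltbp2, a matrix protein related to those that bind latent TGF-beta, was called lower with 459, 859 and 981 counts (-1.49, or -0.94 within 1 kb of its ends).

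Wnt genes were called on both sides. Of 20 measured ligands and modulators (median 0.35, control median -0.06), 5 were higher and 2 lower, or 4 and 1 centred. The ligands Wnt3 (124, 20 and 36 counts, 1.96) and Wnt5a (384, 81 and 147 counts, 1.64) were higher, and the close relative of the latter, Wnt5b (420, 819 and 415 counts, -1.55), was lower together with Wnt11 (491, 724 and 657 counts, -1.14, or -0.66 centred). The modulators Rspo3, which boosts Wnt receptors, and Sfrp1, which binds Wnt proteins, were at 1.43 and 1.35, and within 10 kb the log2 ratio of Sfrp1 was 0.83. Of 21 receptors and targets (median 0.15, control median -0.22), 4 were higher and 0 lower, or 2 and 0 centred. The receptor Fzd10 had 1283, 343 and 224 counts (1.31), Lgr4, the receptor of R-spondins, 1574, 428 and 630 (1.29, or 0.74 centred), and Lef1, a DNA-binding partner of beta-catenin, 490, 146 and 220 (1.15, or 0.86 centred). Lgr4 was at 0.28 within 1 kb of its ends. Of 15 Notch pathway genes (median 0.06, control median -0.18), 0 were called, the nearest being the ligand Dll1 with 1121, 378 and 421 counts (0.98).

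Hippo pathway genes were mostly near level. Fat cadherins act upstream of this pathway in flies, and Fjx1 is the mouse relative of the fly kinase that modifies them. Of 18 genes of the YAP and TAZ pathway (median -0.18, control median -0.02), 2 were higher and 1 lower. The numbers were the same centred, but the lower gene was another. Vgll3, a cofactor that binds TEAD proteins, had 506, 107 and 159 counts (1.64), Fjx1 394, 76 and 131 (1.76), and Tead1, a DNA-binding partner of YAP, 1233, 1681 and 1652 (-1.03). Tead1 lies on chromosome 7, and its centred ratio was -0.55. Ankrd1, at -0.76, was the 1 gene called lower when centred (-1.14). Yap1 had 989, 424 and 622 counts (0.63) and Wwtr1, which encodes TAZ, 1418, 769 and 1061 (0.29). Among 7 Fat and Dachsous cadherins and partners (median 0.38, control median -0.27), Fjx1 was called higher and Dchs2, with 127, 216 and 101 counts (-1.34), lower. Fat3 had 263, 343 and 127 counts (-0.97, or -1.18 centred), and Fat4 had 271, 97 and 168 counts (0.88). Of the 9 measured Camk2 and Src family kinases with Cd44 (median 0.15, control median 0.09), 0 were called, and Camk2d had 2305, 1137 and 1989 counts (0.43) and Src 1473, 1060 and 869 (-0.11). Of 9 subunits of polycomb complex 2 (median -0.35, control median -0.34) 0 were called, and Ezh2, its methyltransferase, had 597, 508 and 496 counts (-0.35). Of 12 subunits of AP-1 (median -0.13, control median -0.28) 0 were called, and of 15 housekeeping genes (median -0.24, control median -0.10) 0 were higher and 1 lower, the ribosomal protein gene Rpl13a with 210, 329 and 351 counts (-1.23).

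Hair follicle genes had the highest median of the lists, 0.76 (control median -0.19), with 5 of 15 called higher and 0 lower, or 5 and 1 centred. Hoxc13, a regulator of hair keratins, had 1 region with 316, 32 and 49 counts (2.66, 2.19 to 3.29). Msx2, a homeobox factor of the hair matrix, had 416, 66 and 90 counts (2.04), Foxi3 142, 29 and 29 (1.65), and Lhx2, which keeps follicle stem cells, 714, 167 and 160 (1.496, or 0.95 centred). The surface protein Cd34, a marker of bulge stem cells, had 722, 196 and 484 counts (1.29, or 0.96 within 1 kb of its ends). These genes were not all alike, since Foxc1 had 391, 493 and 397 counts (-0.92, or -1.14 centred) and Sox9 531, 547 and 624 (-0.63). Among 13 surface markers and genes of tumour stem cells and EMT states (median 0.06, control median 0.28), Prom1 (143, 37 and 28 counts, 1.32) was higher, and the integrin Itgb3 (300, 627 and 580 counts, -1.64) and the chromatin protein Hmga2 (384, 600 and 900 counts, -1.23) were lower.

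Of 26 patterning factors, 8 were called higher and 1 lower, or 8 and 2 centred (median 0.34, control median 0.03). Dach1, a cofactor in eye and limb development, had 679, 63 and 193 counts (2.81, 2.47 to 3.24), and its relative Dach2 146, 18 and 30 (2.33). Irx4, an Iroquois factor, had 482, 47 and 73 counts (2.73), Pax6, the eye regulator, 265, 39 and 85 (2.13), and Meis2, a partner of Hox proteins, 752, 138 and 373 (1.85). The T-box factor Tbx3 had 244, 404 and 491 counts (-1.31). Of 28 measured Hox genes (median 0.16, control median -0.08), 6 were higher and 2 lower, or 5 and 0 centred. The higher ones were Hoxc13 and Hoxc11 of the C cluster and Hoxd1, Hoxd8, Hoxd9 and Hoxd11 of the D cluster; centred, Hoxd1 was at 0.97. Hoxd8 had 110, 14 and 85 counts (2.26), and scaled to depth was within 1.5-fold of the library labelled control. Hoxa3 of the A cluster on chromosome 6 was lower, with 395, 573 and 637 counts (-1.12, or -0.80 centred).

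Forkhead factors included the lowest ratio of any listed gene. Foxa3, a factor of endoderm, had 34, 213 and 158 counts over 2 regions (-3.15, -3.80 to -2.71). Foxe1, active in hair follicle and thyroid, had 222, 53 and 73 counts (1.45). In all, 2 of 20 measured forkhead genes were higher and 2 lower, or 2 and 4 centred (median -0.14, control median -0.32). Of 23 cytokines and chemokines, 2 were higher and 5 lower, or 1 and 5 centred (median -0.45, control median -0.42). Il34, a ligand of the macrophage receptor Csf1r, had 432, 773 and 844 counts (-1.42), Il23a 79, 145 and 40 (-1.44), Csf2 262, 416 and 375 (-1.25) and Lif 773, 1189 and 822 (-1.21, or -0.98 centred). For Csf2 no ratio could be given within 10 kb. The chemokines Ccl27a (78, 20 and 22 counts, 1.31) and Ccl20 (559, 165 and 98 counts, 1.16, or 0.95 centred), both made by keratinocytes, were higher. Of 10 Vegf genes and neuropilins (median -0.20, control median -0.21), the lymphatic ligand Vegfc, with 168, 265 and 382 counts (-1.23), and the receptor Flt1, with 792, 1074 and 970 (-1.03), were lower. Over regions within 10 kb the log2 ratio of Vegfc was -0.93, and the log2 ratio of Flt1 was -0.83 as the median over its regions and -0.96 with total nuclear counts as library sizes. Flt1 is also 1 of the 8 endothelial markers, whose median was 0.55 (control median 0.48) with 1 higher and 1 lower.

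Among 21 measured drivers and suppressors of skin carcinoma (median 0.00, control median -0.19), 3 were higher and 1 lower, or 2 and 0 centred. Cdkn2a had 519, 81 and 167 counts (2.07, 1.75 to 2.45) and Cdkn2b 581, 73 and 188 (2.38, 2.05 to 2.78). The region over the Arf start had 199, 7 and 37 counts (3.96, 3.17 to 5.57), that over the Ink4a start 36, 2 and 10 (2.82), and that over the Cdkn2b start 339, 23 and 104 (3.21). All 3 start sites had few counts in the library labelled Epcam+, and the library labelled control lay between the pair. Counts at the far end of the group of regions were less different, with 43, 26 and 9 counts (0.13) at chr4:89360219-89360770. Mycn had 344, 96 and 99 counts (1.24, or just under 2-fold centred), and the receptor gene Erbb2 205, 286 and 126 (-1.06, or -0.83 centred and -0.46 within 1 kb of its ends). Trp53 (101, 56 and 62 counts, 0.26) and Egfr (2117, 1117 and 1043 counts, 0.33) did not pass 2-fold.

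**Figure D4:**
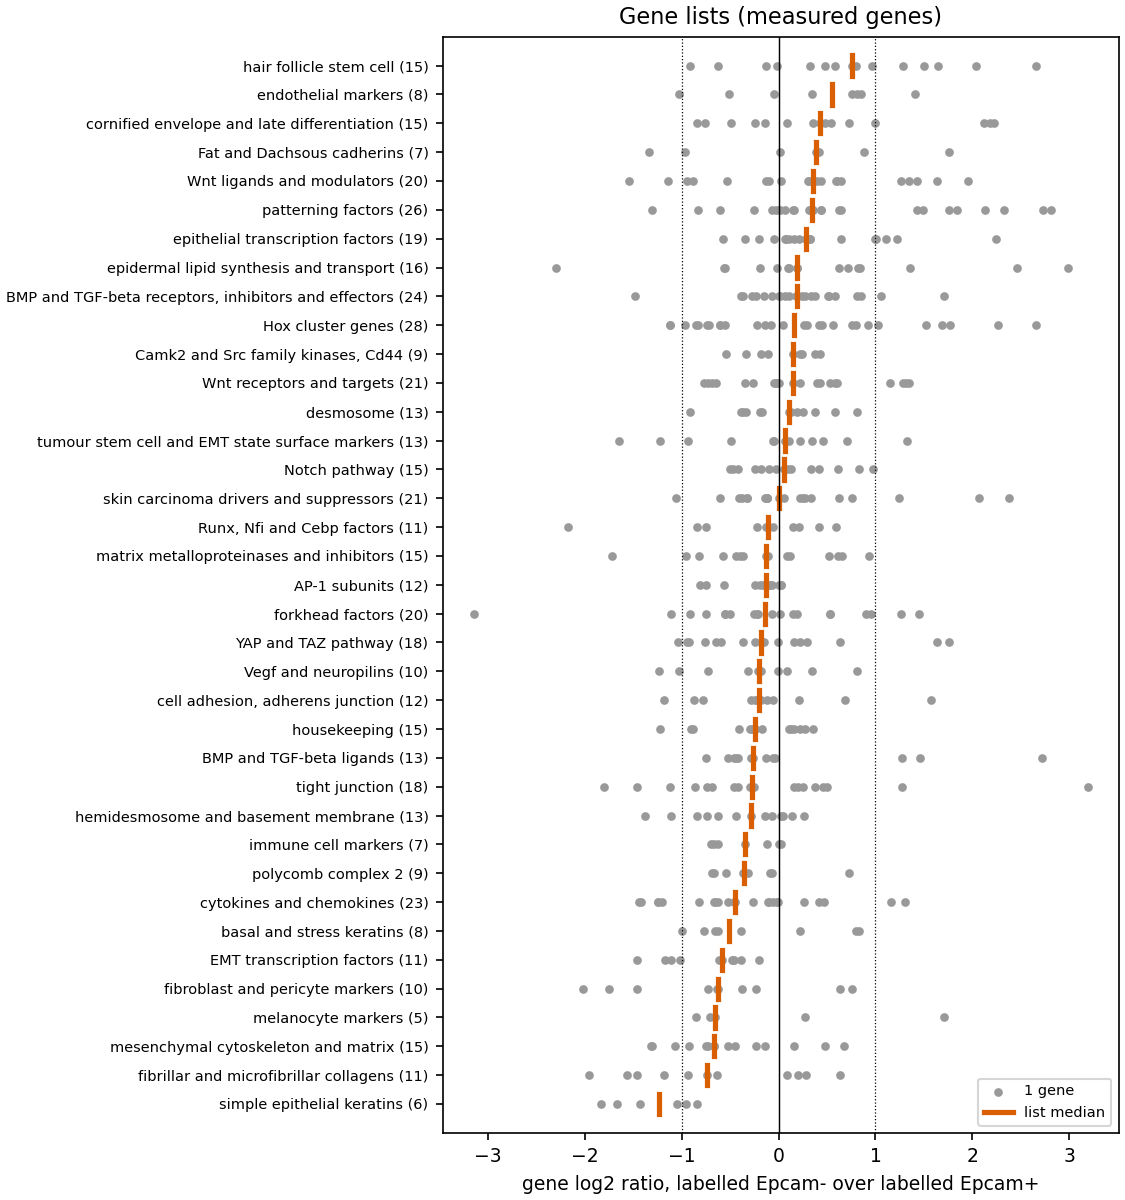
Log2 ratio of the library labelled Epcam- over that labelled Epcam+ (horizontal axis) for each measured gene (grey points) of each list (vertical axis, number of measured genes in parentheses), with the list's median (orange bars). The hair follicle list has a median of 0.76 and the simple epithelial keratins one of -1.24.

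Runx3 lay in the longest run of lower regions. Over 15 regions it had 314, 951 and 515 counts (-2.18), and 10 of its 11 regions with enough counts passed 2-fold. The upstream start shown above had 10, 143 and 67 counts (-4.13, -5.52 to -3.51), and the downstream start 58, 90 and 49 (-1.19, -1.72 to -0.73). The intervals of the 2 start sites do not overlap, but Runx3 was chosen for this gap once the values were known, so this adds no support. The paralogue Runx1 had 1633, 1943 and 2088 counts (-0.84, or -1.13 centred) and Runx2 1654, 990 and 1327 (0.15). In the list of 11 Runx, Nfi and Cebp factors (median -0.11, control median -0.12), Runx3 was the 1 gene called, or 1 of 3 centred, with Runx1 and Nfic.

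The share called among start-site regions was below that of all regions. Of 8883 regions that hold a whole window from 250 bases before to 50 after a listed RefSeq start site, 587 (6.61%) were higher and 343 (3.86%) lower. Besides Cdkn2a, the highest included Cyp2r1, the vitamin D 25-hydroxylase, with 265, 14 and 88 counts (3.51), Armh4 with 309, 13 and 42 (3.83), and Aldh1a1, which makes retinoic acid, with 187, 7 and 24 (3.87). In each, the library labelled control lay between the pair. Besides Runx3, the lowest included Plekhs1 with 6, 68 and 17 counts (-3.64) and the Tsc22d1 start shown above with 5, 56 and 10 (-3.55, -5.75 to -2.77). The other starts of Tsc22d1 were level, with 366, 234 and 198 counts (0.06) upstream and 194, 144 and 120 (-0.16) downstream. Mndal (3, 122 and 123 counts), Ifi203 (11, 132 and 99) and Trim12a (0, 65 and 76) were also among the lowest, and belong to families of near-identical copies, so the assignment of their reads is uncertain.

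Few genes with several start sites differed between them as much as Tsc22d1 and Runx3. Among 282 genes with listed start sites in 2 or more regions, the gap between the highest and lowest log2 ratio had a median of 0.46. It was 1 or more in 57 genes (20.2%) and 2 or more in 10 (3.55%). They were chosen for this gap once the values were known. They include Shroom3, a regulator of cell shape, with starts at -2.23 and -0.01, and Prkag2, a subunit of the energy sensor AMPK, with starts from -0.14 to 2.28.

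The share of windows with the RUNX letters was highest at lower start sites. The windows ran from 250 bases before to 50 after each start site, and were grouped with chromosome medians set to 0. The letters TGTGGT, on either strand, were found in 20.2% of 366 lower windows, 9.28% of 485 higher ones and 11.04% of 8820 within 2-fold, against 14.7% of all 21045 windows in the table. The AP-1 letters were found in 11.5% of lower, 10.1% of higher and 4.94% of windows within 2-fold, and in 7.04% of all. The E-box letters were in 20.8%, 24.1%, 16.6% and 19.9% in the same order. GGGCGG, the letters bound by KLF and SP factors, was in 53.3%, 66.2%, 72.1% and 46.7%. Lower windows also had less GC (median 58.3%, with 13 CpG) than higher ones (64.0%, 21 CpG) and those within 2-fold (62.7%, 23 CpG), and the part of base composition in these shares was not tested. A match of letters is a description and not a binding site.

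By size with chromosome medians set to 0, 12 genes were chosen on each side. The higher ones included Ttpa, Cldn17, Nipal4, Slc16a7, Dach1, Kcnc4, Irx4, Bmp4, Apcs, Sptlc3 and Glp1r. Nipal4, which is needed for the skin lipid barrier, had 634, 69 and 102 counts (2.58, 2.25 to 2.99), the monocarboxylate transporter Slc16a7 793, 65 and 142 (2.99), and the potassium channel Kcnc4 770, 72 and 127 (2.80). Ttpa, which carries vitamin E, had 233, 16 and 52 counts (3.15). For all 12 genes every region with enough counts lay above 0. The choice already required most regions of a gene to lie on the same side of 0, so their agreement adds little. In the library labelled control, Glp1r (300, 33 and 26 counts) was below the library labelled Epcam+ once scaled to depth, and the other 11 were above it.

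The lower genes included Slc13a1, Il2, Inpp5d, Pld5, Trpa1, S1pr1, Sf3b3, Npsr1, Gria1, Muc16 and Runx3. Slc13a1, a sulphate transporter, had 38, 290 and 72 counts (-3.44, -4.05 to -3.03), and 4 of its regions passed 2-fold. S1pr1, the receptor of sphingosine 1-phosphate, had 137, 422 and 419 counts (-2.19), and all 9 of its regions with enough counts passed 2-fold. Il2, the T cell growth factor, had 35, 135 and 164 counts (-2.46), and Inpp5d, a phosphatase of blood cells, 67, 260 and 195 (-2.50). Beside these blood cell genes, the general leukocyte marker Ptprc had 260, 173 and 225 counts, a ratio with an interval of -0.28 to 0.29. The ion channel Trpa1 had 29, 103 and 29 counts (-2.32), and the mucin Muc16 55, 167 and 24 (-2.14). Slc13a1, Trpa1 and Muc16 were low in the library labelled control too, whereas Il2, Pld5, S1pr1, Sf3b3 and Gria1 were within 1.5-fold of the level in that labelled Epcam+.

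Differing regions lay next to each other over long stretches. A run was a stretch of neighbouring kept regions on the same side, all differing after chromosome medians were set to 0. There were 8423 higher runs, of which 5766 were single regions and 307 held 5 or more, and 7679 lower runs, of which 5392 were single and 199 held 5 or more. The longest higher run had 21 regions over 1.80 Mb at Dlg2, a synaptic scaffold gene on chromosome 7, with 1025, 208 and 354 counts (1.70). Before centring its regions ranged from 0.59 to 3.03, so some passed 2-fold only when centred, and its length depends on centring. Tenm2, a teneurin gene, held 18 regions over 0.980 Mb with 1172, 145 and 219 counts (2.41). Most of that length is a gap with no kept region, between chr11:36624787-36625283 and the last region at chr11:37236129-37236949. A run of 14 regions crossed the Serpinb cluster of chromosome 1, which holds squamous protease inhibitors such as Serpinb12 and Serpinb7, with 693, 75 and 98 counts (2.59, 2.27 to 2.98). None of its regions was called as a peak in either library of the pair, and 13 of 14 were called in that labelled control. Among the 62308 kept regions, 16363 were called in neither library of the pair, and 88.7% of those were called in that labelled control. The share in this run is thus near that of such regions in general. A further 14 regions ran from Ror1, a receptor that binds Wnt proteins, to Raver2, with 1062, 117 and 299 counts (2.58).

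The longest lower run had 20 regions over 0.248 Mb, from Syf2 across Runx3 to Clic4, with 408, 1369 and 895 counts (-2.33, -2.50 to -2.17). Its regions ranged from -4.13 to -0.88. A run of 10 regions held Twist1 and part of Hdac9, whose introns carry Twist1 enhancers, with 264, 573 and 650 counts (-1.70, -1.92 to -1.49). Another of 10 regions at Cacna2d1 and Hgf, the scatter factor gene, had 157, 491 and 378 counts (-2.22). At Ccser2, 11 regions had 252, 705 and 187 counts (-2.06). The library labelled control thus sided with that labelled Epcam+ at Twist1 and with that labelled Epcam- at Ccser2.

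**Figure D5:**
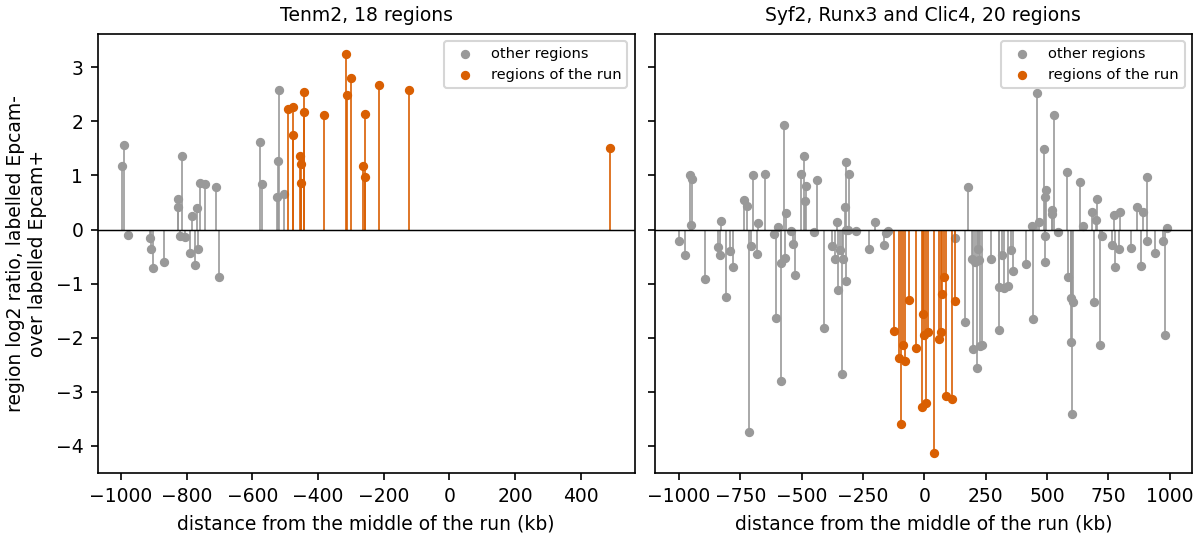
Log2 ratio of each kept region (vertical axis) by its distance from the middle of the run in kb (horizontal axis), for the Tenm2 run (18 regions, higher in the library labelled Epcam-) and the run from Syf2 to Clic4 across Runx3 (20 regions, lower). Regions of the run are coloured and their neighbours are grey, and the lower run spans -4.13 to -0.88.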

How the data were processed

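ATAC-seq counts of 3 libraries, 1 per group, were read from a single table that the authors deposited. It gives raw counts over 95842 merged regions and, as other values, a yes or no peak call for each library, per the file headers. Each column carries the title of a sample, and was given to that sample. Per the submitters' processing notes, MACS2 2.1.0.20151222, Picard, Bowtie2 2.2.6 and SAMtools were among the tools and mm10 (GRCm38) was the build; their roles are not stated. The unit counted (reads or fragments), the counting tool, filters, any shift for transposase binding and the threshold of the calls were not given in the sources used here. Any of these can move counts at the edges of regions. Per the labels' protocols, sorted nuclei were incubated with Tn5 for 30 minutes at 37 degrees.

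The 2 mitochondrial regions were left out. Library sizes came from TMM factors over the 3 libraries (edgeR 4.0.16, R 4.3.3). Log2 ratios used edgeR's formula with a prior count of 2, in Python 3.11.15 with scipy 1.17.1, and were tested on simulated data. The size rule was 2-fold, with 20 counts or more in either library of the pair. Since each group has 1 library, no model was fitted and no test between conditions was made. A count of 0 allows up to 3 counts, equal to 0.545 CPM in the library labelled Epcam-, 0.820 in that labelled Epcam+ and 0.665 in that labelled control. Regions are given as in the file. Each region was assigned to the nearest protein-coding gene body within 50 kb, from RefSeq on GRCm38, which gave 79155 regions (82.6%) a gene. All 557 symbols of the 39 lists were found. Gene counts are sums over assigned regions, so long genes have more.

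Named genes were Epcam, Fat1, up to 4 highest and 4 lowest members per list, and the 12 highest and 12 lowest genes with chromosome medians set to 0, among those with 100 counts or more in 1 of the 2 libraries and 3 or more regions, at least 3 in 4 of them on the same side of 0, without unnamed models. Other members named are for background, and a few genes that the rule chose are not reported here. The members and lists were chosen with earlier results of these data known. Alternatives were other library sizes, prior counts, minimums and ways to join regions to genes, chromosome medians set to 0, only called regions, and, chosen after seeing the data, the count column labelled control in place of that labelled Epcam-.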

Additional observations from a re-analysis of the deposited data

Results flagged for a closer look

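Mitochondrial regions, which no comparison used, held 41.0% of the counts in the library labelled Fat1 cKO Epcam-, above the 39.1% of the library labelled control. The share was 42.6% in the library labelled Fat1 cKO Epcam+.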

How the results depend on the processing

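With the count column labelled control in place of that labelled Epcam-, an alternative chosen after seeing the data, the number of regions at least 2-fold higher was 8763 and of genes at least 2-fold higher 651, against 15597 and 1487. With only regions called in 1 or more of the pair these counts were 4983 and 804, and with the median over a gene's regions 2355 genes were higher. At a minimum of 50 counts 6576 regions were higher, and the number of regions at least 2-fold lower was 4568, against 10876. Over the regions within 1 kb of either gene end, the number of genes at least 2-fold lower was 521, against 984. The log2 ratio of Twist2, -1.46, turned to 0.65 over the regions within 1 kb of its ends. The cause was not tested, except that a higher minimum and fewer regions leave fewer features to call. The counts stayed within 1.5 times the main ones under total nuclear counts as library sizes, TMM over the pair, a prior count of 0.5, a minimum of 10 counts, chromosome medians set to 0 and regions within 10 kb of the gene. Of the named genes past 2-fold that had a value, 18 of 114 fell under it with chromosome medians set to 0 and 13 of 79 over gene ends. No paired analysis was possible because each group has 1 library and no test was made. Regions with few counts have wide intervals, and small differences were not detectable there.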
